A study of Mus musculus with 4 samples.

Results

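The genes described here encode effector proteins of basophils and mast cells: the serine proteases Mcpt8 and Prss34, the carboxypeptidase Cpa3, the IgE receptor chains Fcer1a and Ms4a2, the histamine-forming enzyme Hdc and the receptor Cd200r3. They were chosen by gene symbol, and all 7 were found among the 47561 genes of the deposited tables. RNA-seq had been run on LSK cells (lineage-negative, Sca-1+, c-Kit+), the bone marrow fraction of blood stem cells and early progenitors. Metrn cKO mice (2 libraries, 1 mouse each) carried floxed Metrn on both alleles together with LysM, the lysozyme driver used to delete floxed genes in myeloid cells. Metrn f/f mice (2 libraries, 1 mouse each) carried the floxed Metrn alleles without the driver. All 4 mice were C57BL/6 and 12 weeks old. The series addressed how Meteorin, a secreted factor, acts from macrophages on stem and progenitor cells. The driver deletes in myeloid cells, so the genotype is not a deletion throughout the LSK fraction.

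Basophils are rare granulocytes of blood, and mast cells are long-lived granule-bearing cells of tissues. Both bind IgE through a high-affinity receptor, whose alpha chain holds the antibody and whose beta and gamma chains carry the signal inward. Crosslinking of bound IgE releases granules of proteases and histamine and starts the synthesis of lipid mediators and cytokines. In mice, both lineages arise in the marrow from myeloid progenitors that use the transcription factors Gata2 and Cebpa, and some of these genes are already transcribed in progenitors before granules form.

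The libraries differed in their content of mature blood cell transcripts, and the difference did not follow genotype. Deposited values, taken as FPKM (fragments per kilobase of transcript and per 1000000 mapped), summed to 562401 and 412955 in Metrn cKO 1 and 2 and to 392717 and 671802 in Metrn f/f 1 and 2. Between 12175 and 12996 genes per library reached 1 FPKM, and read totals were unknown. The LSK sort genes were present in every library: Kit, the stem cell factor receptor, had 25.9 and 116 FPKM in Metrn cKO and 108 and 24.8 FPKM in Metrn f/f. Ly6a, which encodes Sca-1, had 48.4 and 38.2 FPKM in Metrn cKO and 37.2 and 83.2 FPKM in Metrn f/f. The 8 neutrophil markers, which a lineage-negative sort should lack, summed to 58421 and 2002 FPKM in Metrn cKO and to 2550.4 and 32529 FPKM in Metrn f/f. Metrn cKO 1 and Metrn f/f 2 thus stood apart from the other pair, which were alike. With 1 library per mouse, the p-values below rest on the spread between libraries, partly pooled over genes. In that spread, mice, sorting and library preparation cannot be told apart.

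Some of the 250-base stretches upstream of a RefSeq start (GRCm38.p6) are printed because, of all pairs of members, their genes form the pair with the steadiest and the pair with the least steady ratio over these libraries: the proteases Mcpt8 and Prss34, and the receptor chains Fcer1a and Ms4a2. Capitals mark matches to the GATA factor motif, searched on both strands as AGATAA, as its form AGATAG with a final G, as TGATAA, and as that one's own form TGATAG.
Mcpt8, chr14:56085198-56085447 (minus strand): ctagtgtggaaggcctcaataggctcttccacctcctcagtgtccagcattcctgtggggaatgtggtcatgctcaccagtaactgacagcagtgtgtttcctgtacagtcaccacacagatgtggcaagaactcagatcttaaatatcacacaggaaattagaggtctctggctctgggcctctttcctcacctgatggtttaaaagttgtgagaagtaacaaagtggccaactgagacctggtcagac
Prss34, chr17:25298144-25298393 (plus strand): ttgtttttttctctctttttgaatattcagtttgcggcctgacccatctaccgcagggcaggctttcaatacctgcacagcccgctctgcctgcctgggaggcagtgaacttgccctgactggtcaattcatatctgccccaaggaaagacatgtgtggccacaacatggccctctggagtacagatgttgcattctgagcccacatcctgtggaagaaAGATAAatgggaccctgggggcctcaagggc
Fcer1a, chr1:173227230-173227479 (minus strand): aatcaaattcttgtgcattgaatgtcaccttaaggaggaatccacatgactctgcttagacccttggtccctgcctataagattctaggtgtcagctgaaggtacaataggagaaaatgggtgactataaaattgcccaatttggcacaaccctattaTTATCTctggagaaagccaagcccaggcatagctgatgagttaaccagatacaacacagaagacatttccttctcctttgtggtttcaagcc
Ms4a2, chr19:11623720-11623969 (minus strand): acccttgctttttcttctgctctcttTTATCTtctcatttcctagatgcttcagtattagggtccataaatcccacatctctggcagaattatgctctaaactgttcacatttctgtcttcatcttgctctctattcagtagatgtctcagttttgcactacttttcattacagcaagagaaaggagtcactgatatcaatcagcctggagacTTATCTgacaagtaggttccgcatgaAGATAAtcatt
The Mcpt8 stretch held 0 GATA matches, Prss34 and Fcer1a held 1 each, and Ms4a2 held 3. Of the members not printed, Cpa3 and Hdc held 1 each and Cd200r3 held 3. A match was thus present in 6 of the 7 members, against 26.5% of all 32851 promoter stretches of that length in the table. The RUNX motif TGTGGT was matched in Mcpt8, with 2 matches, and in Cpa3 and Fcer1a, with 1 each, against 14.0% of all stretches. The C/EBP motif TTNCNNAA was matched in Fcer1a and Cd200r3, against 36.8% of all stretches. No matches of different motifs overlapped in the members. The RefSeq starts used for Mcpt8 and Hdc lie inside the GENCODE spans of these genes. The Mcpt8 stretch therefore lies partly, and the Hdc stretch wholly, within its own gene. How many of all stretches do so was not counted. The matches describe letters in a window and are no evidence of binding.

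The serine proteases Prss34 and Mcpt8 had the highest mean levels of the members. Mcpt8, mast cell protease 8, is a serine protease that in mice is found mainly in basophils. It lies on chromosome 14 (positions 56082166 to 56085273 of GRCm38, minus strand, 5 exons) next to Ctsg and other genes of the chymase cluster. It had 67.5 and 27.4 FPKM in Metrn cKO and 20.4 and 67.0 FPKM in Metrn f/f. The high libraries were Metrn cKO 1 and Metrn f/f 2, so the groups overlapped. Prss34, a serine protease of basophils and mast cells on chromosome 17 (25298394 to 25300165, plus strand, 5 exons), was high in the same libraries. It had 82.7 and 39.9 FPKM in Metrn cKO and 29.5 and 98.9 FPKM in Metrn f/f. Prss34 lay above 90.9% of the 13148 tested genes by its mean over the libraries, and Mcpt8 above 87.2%. In bulk RNA, more cells of a type and more RNA per cell cannot be told apart, so these levels do not give a number of cells.

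Mcpt8 and Prss34 kept nearly the same proportion in every library. The ratio of their FPKM levels was 0.816 and 0.688 in Metrn cKO and 0.690 and 0.678 in Metrn f/f, a span of 1.21-fold, although Mcpt8 itself spanned 3.32-fold and Prss34 3.35-fold. A ratio within a library does not depend on how that library was scaled. Cpa3 did not keep such a proportion to Mcpt8: its ratio was 0.230 and 0.534 in Metrn cKO and 0.589 and 0.354 in Metrn f/f. Cpa3 encodes a carboxypeptidase of mast cell granules, found also in basophils and in progenitors (chromosome 3, 20215620 to 20242181, minus strand, 11 exons). It had 15.5 and 14.6 FPKM in Metrn cKO and 12.0 and 23.7 FPKM in Metrn f/f. Metrn f/f 2 was the high library, and both Metrn cKO values lay between the Metrn f/f values.

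Proteases typical of mature mast cells were near or at 0 in the same libraries. Of 12 chymase-cluster and tryptase genes, 6 were listed at 0 in all 4 libraries: Cma2, Mcpt1, Mcpt2, Mcpt9, Tpsab1 and Tpsg1. Mcpt4, a chymase of connective tissue mast cells, and Tpsb2, a mast cell tryptase, were listed at 0 in all but Metrn f/f 2, where they had 0.281 and 0.251 FPKM. Cma1, the chymase also called mast cell protease 5, was listed at 0 in both Metrn cKO libraries and had 0.0891 and 0.495 FPKM in Metrn f/f. Gzmb, a granzyme of the same cluster, had 1.19 and 0.550 FPKM in Metrn cKO and 0.244 and 1.24 FPKM in Metrn f/f. The exception was Ctsg, the cathepsin G of promyelocyte granules, which neighbours Mcpt8. It had 455 and 414 FPKM in Metrn cKO and 469 and 611 FPKM in Metrn f/f. Gzmb and Ctsg were the 2 genes of this list that could be tested. Mrgprb2, a receptor of connective tissue mast cells, was also listed at 0 in all 4 libraries.

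**Figure D1:**
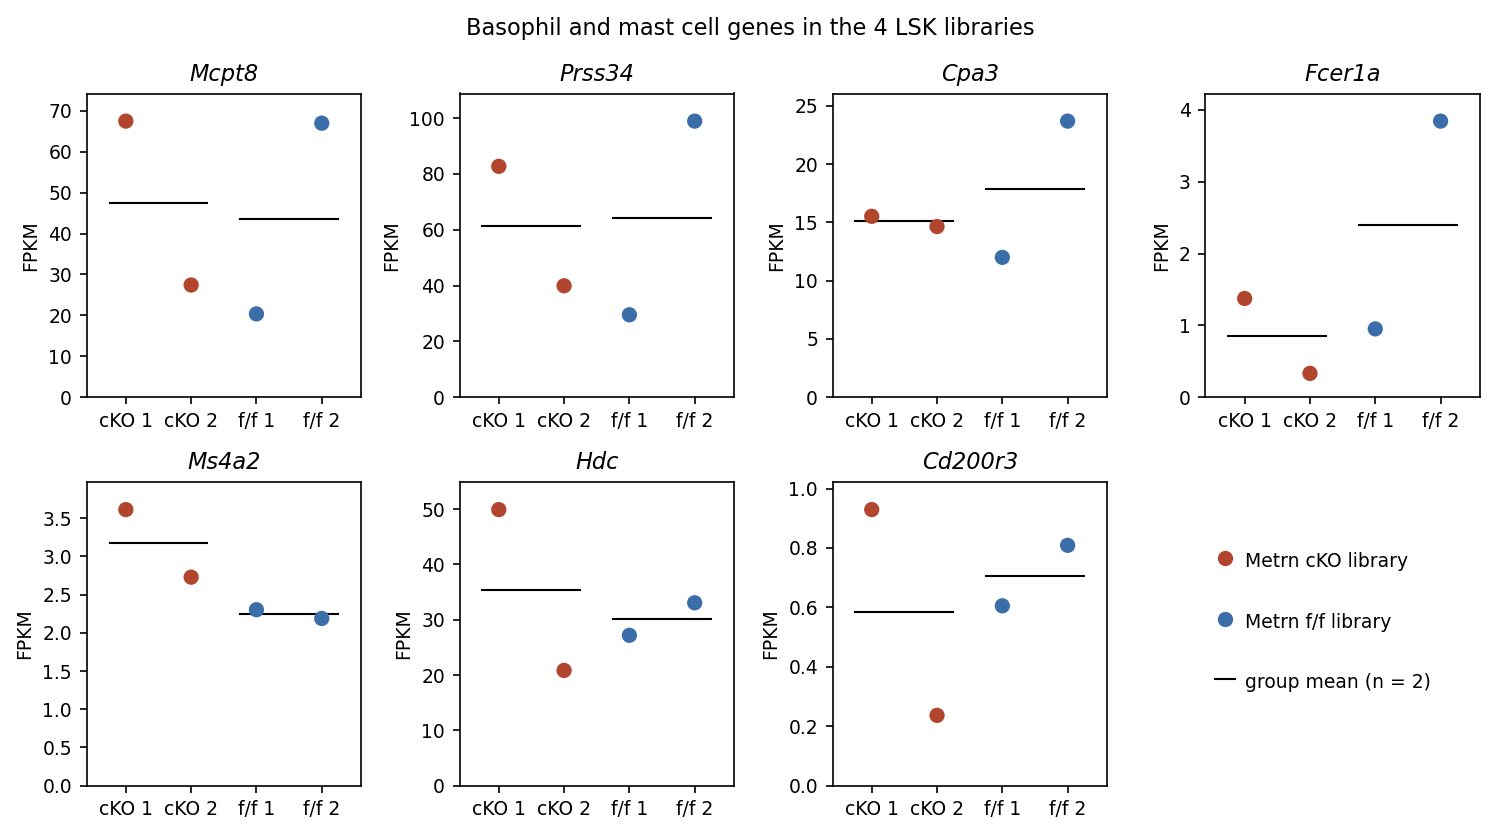
Level of each of the 7 genes in FPKM (vertical axes, each starting at 0) in each library (horizontal axes), with Metrn cKO in red, Metrn f/f in blue and group means as black lines (n = 2 each). Mcpt8 and Prss34 were high in Metrn cKO 1 and Metrn f/f 2, while in Ms4a2 the red points lay above the blue ones.

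The IgE receptor chains were low, and they did not move together. Fcer1a encodes the alpha chain, which binds IgE (chromosome 1, 173221284 to 173227214, minus strand, 5 exons). It had 1.37 and 0.331 FPKM in Metrn cKO and 0.951 and 3.84 FPKM in Metrn f/f. Metrn f/f 2 was highest and Metrn cKO 2 lowest, a span of 11.6-fold, the widest of the 7 genes. Ms4a2 encodes the beta chain, which amplifies the signal (chromosome 19, 11615523 to 11623719, minus strand, 7 exons). It had 3.61 and 2.73 FPKM in Metrn cKO and 2.30 and 2.19 FPKM in Metrn f/f. Its span in deposited FPKM was 1.65-fold, the narrowest of the 7, and each Metrn cKO value exceeded each Metrn f/f value. The ratio of alpha to beta chain FPKM was 0.380 and 0.121 in Metrn cKO and 0.413 and 1.76 in Metrn f/f. The span of 14.5-fold rests on the same low Fcer1a value. Fcer1g, the gamma chain, which other Fc receptors of myeloid cells also use, was far higher than both. It had 231 and 46.5 FPKM in Metrn cKO and 48.4 and 346 FPKM in Metrn f/f, with the high values in the same libraries as those of the neutrophil markers.

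Hdc, histidine decarboxylase, makes histamine from histidine and is transcribed in basophils, mast cells and some myeloid progenitors (chromosome 2, 126593667 to 126619299, minus strand, 12 exons). It had 49.9 and 20.8 FPKM in Metrn cKO and 27.2 and 33.1 FPKM in Metrn f/f. The highest and the lowest library were both Metrn cKO, and the Metrn f/f values lay between them. Slc18a2, the transporter that loads histamine into granules, had 2.87 and 16.7 FPKM in Metrn cKO and 13.5 and 7.05 FPKM in Metrn f/f. Its lowest library was Metrn cKO 1, which had the highest Hdc. Cd200r3, a surface receptor of basophils and mast cells in the CD200 receptor family (chromosome 16, 44943678 to 44981380, plus strand, 6 exons), stayed under 1 FPKM throughout. It had 0.929 and 0.237 FPKM in Metrn cKO and 0.605 and 0.809 FPKM in Metrn f/f, with Metrn cKO again holding both extremes. Among its neighbours in the gene cluster, Cd200r1 had 3.68 and 4.96 FPKM in Metrn cKO and 4.18 and 6.46 FPKM in Metrn f/f. Cd200r2 and Cd200r4 were under 1 FPKM in every library.

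The order of the levels by mean was Prss34, Mcpt8, Hdc, Cpa3, Ms4a2, Fcer1a and Cd200r3. Neighbours in this order had overlapping ranges over the 4 libraries, except that every Cpa3 value (at least 12.0 FPKM) lay above every Ms4a2 value (at most 3.61 FPKM). Shared sequence was small: no 50-base word of the longest GENCODE coding transcript occurred in other genes for Mcpt8, Prss34, Cpa3, Fcer1a and Hdc. For Ms4a2 2.69% of words and for Cd200r3 4.39% of words did. Each of Mcpt8 and Cpa3 has 1 annotated microRNA gene on the same strand inside it, and no member overlaps a gene on the other strand.

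The genotype comparison asked whether loss of Metrn in myeloid cells alters these genes in the LSK fraction. None of the 6 members that could be tested passed the test, and neither did any other gene. Testing required 1 FPKM in 2 or more libraries, which left out Cd200r3. limma on log2(FPKM + 1) called 0 of 13148 genes higher and 0 lower at an adjusted p of 0.05 (0% in each direction). An unadjusted p under 0.05 was reached by 39 genes (8 up, 31 down in Metrn cKO), and no member was among them. For a single gene on its own, an exact permutation test of 2 against 2 libraries cannot give a 2-sided p below 0.333.

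The proteases had log2 fold changes near 0 with wide intervals. Mcpt8 averaged 47.5 ± 28.3 FPKM in Metrn cKO and 43.7 ± 33.0 FPKM in Metrn f/f (SD, n = 2 each), a log2 fold change of 0.21 (95% interval -1.44 to 1.87). Prss34 averaged 61.3 ± 30.3 FPKM in Metrn cKO and 64.2 ± 49.1 FPKM in Metrn f/f. Its log2 fold change was 0.08 (-1.52 to 1.69), of opposite sign to the difference of the means. Cpa3 averaged 15.1 ± 0.622 FPKM in Metrn cKO and 17.9 ± 8.27 FPKM in Metrn f/f, a log2 fold change of -0.16 (-1.31 to 0.99). These intervals reach beyond a doubling for Mcpt8 and Prss34, and beyond a halving for Mcpt8, Prss34 and Cpa3. The test thus does not show equal levels. The sign followed single libraries: the log2 fold change of Mcpt8 was 1.05 without Metrn f/f 2, 0.85 without Metrn cKO 2, -0.42 without Metrn cKO 1 and -0.62 without Metrn f/f 1. For Prss34 the same values were 0.94, 0.60, -0.43 and -0.77. For Cpa3 the value was 0.31 without Metrn f/f 2.

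Among the receptor chains, Fcer1a averaged 0.853 ± 0.737 FPKM in Metrn cKO and 2.40 ± 2.05 FPKM in Metrn f/f (SD, n = 2 each). Its log2 fold change of -0.79 (95% interval -2.38 to 0.80) was the furthest from 0 among the 6, and Metrn f/f 2 carried it: without that library it was -0.13. It was -0.37 without Metrn cKO 2, and -1.35 with a pseudocount of 0.1 FPKM. Ms4a2 averaged 3.17 ± 0.625 FPKM in Metrn cKO and 2.25 ± 0.0807 FPKM in Metrn f/f, a log2 fold change of 0.35 (-0.89 to 1.60). It was the 1 member of 6 in which each Metrn cKO value exceeded each Metrn f/f value, an arrangement that 6.31% of the tested genes had. The opposite arrangement, found in 5.73% of the tested genes, was seen in 0 members. Without Metrn f/f 2, 4 of the 6 members (Mcpt8, Prss34, Cpa3 and Ms4a2) had Metrn cKO above, against 24.0% of the tested genes, and 0 had it below, against 27.4%. Without Metrn cKO 1, Ms4a2 alone was above, against 36.0% of the tested genes, and Fcer1a and Hdc were below, against 17.2%. Hdc averaged 35.4 ± 20.6 FPKM in Metrn cKO and 30.1 ± 4.16 FPKM in Metrn f/f, a log2 fold change of 0.11 (-1.12 to 1.33). It was -0.50 without Metrn cKO 1 and 0.72 without Metrn cKO 2. Cd200r3, outside the filter, averaged 0.583 ± 0.490 FPKM in Metrn cKO and 0.707 ± 0.144 FPKM in Metrn f/f.

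**Figure D2:**
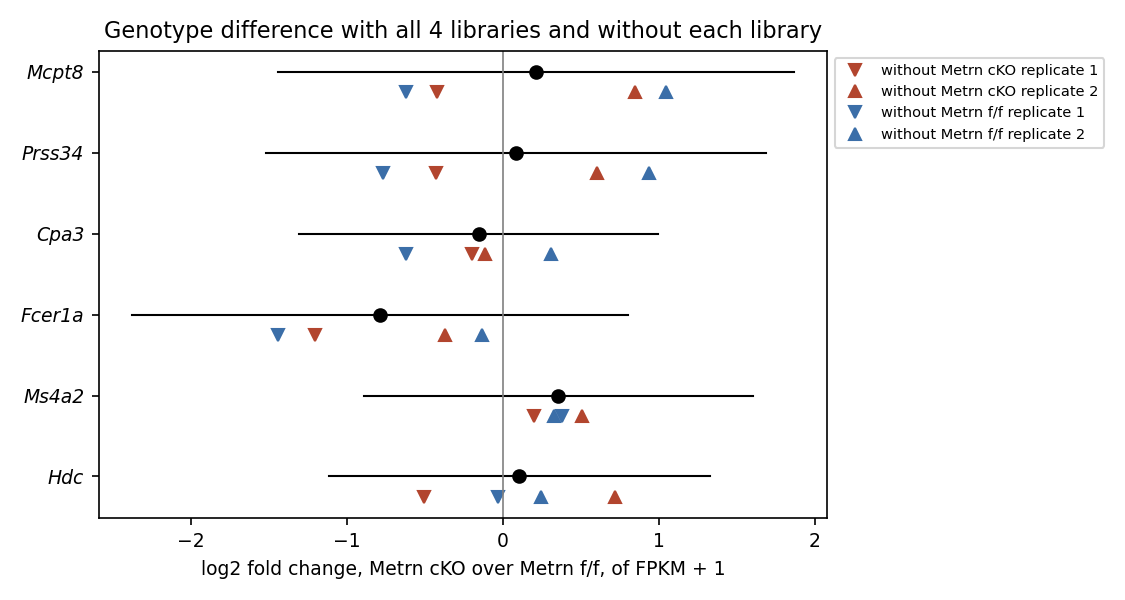
Log2 fold change of FPKM + 1, Metrn cKO over Metrn f/f (horizontal axis), for the 6 tested genes (rows), with black points and lines for all 4 libraries and their 95% intervals and triangles for fits that leave out 1 library. All 6 intervals include 0, and the triangles of Mcpt8 run from -0.62 to 1.05.

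In 5 of the 6 tested members, the larger difference between libraries of the same genotype exceeded the genotype difference. Ms4a2 was the exception. Its genotype difference of 0.35 compared with 0.31 between Metrn cKO 1 and Metrn cKO 2 and -0.05 between Metrn f/f 2 and Metrn f/f 1, on the log2(FPKM + 1) scale. On the same scale, Mcpt8 differed by 1.27 between Metrn cKO 1 and Metrn cKO 2, and by 1.67 between Metrn f/f 2 and Metrn f/f 1. Prss34 differed by 1.03 and 1.71 in the same pairs. The larger difference between single libraries easily exceeds a difference of group means. The share of all tested genes with this trait was not computed, so the count of 5 cannot be read as particular to the members. In deposited FPKM, all 7 members were higher in Metrn cKO 1 than in Metrn cKO 2. In Metrn f/f 2, 6 of the 7 were higher than in Metrn f/f 1 in deposited FPKM, the exception being Ms4a2. The median difference over the 6 tested members was 0.93 in the Metrn cKO pair and 1.12 in the Metrn f/f pair, where that over all tested genes was -0.24 and -0.23. In the most alike libraries, Metrn cKO 2 and Metrn f/f 1, the members went both ways: Mcpt8 was 0.41 and Prss34 0.42 higher in Metrn cKO 2, while Fcer1a was 0.55 and Hdc 0.37 lower.

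With each library rescaled to a sum of 1000000, the span of Cpa3 over the libraries was 1.28-fold, against 1.97-fold in deposited FPKM. That of Mcpt8 was 2.32-fold, against 3.32-fold, and that of Prss34 was 1.96-fold, against 3.35-fold. On this scale, Ms4a2 spanned 2.03-fold. It had 6.43 and 6.61 parts per 1000000 in Metrn cKO and 5.86 and 3.26 parts in Metrn f/f, and the groups still did not overlap. Some directions within a genotype changed with the rescaling. Cpa3 (27.6 and 35.5 parts) and Ms4a2 became lower in Metrn cKO 1 than in Metrn cKO 2. Hdc (69.2 and 49.2 parts in Metrn f/f 1 and 2) and Cd200r3 (1.54 and 1.20 parts) became lower in Metrn f/f 2. The other members kept their direction in both pairs. The 7 members together made up 394 and 257 parts per 1000000 in Metrn cKO and 237 and 342 in Metrn f/f. Mcpt8 and Prss34 held 67.8% and 63.4% of the members' summed FPKM in Metrn cKO, and 53.7% and 72.3% in Metrn f/f.

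Markers of several mature blood cells were high in the same libraries as the members' sum, by larger factors. Mcpt8 and Prss34 made up most of that sum, and Ms4a2 was at its lowest in Metrn f/f 2 (2.19 FPKM). The 7 members summed to 222 and 106 FPKM in Metrn cKO and to 92.9 and 229.5 FPKM in Metrn f/f. The 9 eosinophil markers summed to 1985 and 195 FPKM in Metrn cKO and to 110.1 and 2523 FPKM in Metrn f/f. Their defining genes Epx, eosinophil peroxidase, and Prg2, major basic protein, were not at 0 in any library, and Prg2 had 1301 and 117 FPKM in Metrn cKO and 67.0 and 1717 FPKM in Metrn f/f. Epx had 80.2 and 13.9 FPKM in Metrn cKO and 9.27 and 62.2 FPKM in Metrn f/f. Erythroid markers summed to 18887 and 1971 FPKM in Metrn cKO and to 2406 and 22881 FPKM in Metrn f/f. Macrophage markers summed to 182 and 46.6 FPKM in Metrn cKO and to 40.2 and 999.5 FPKM in Metrn f/f. B and plasma cell markers summed to 4208 and 241 FPKM in Metrn cKO and to 188 and 1126 FPKM in Metrn f/f. Megakaryocyte markers summed to 22.8 and 32.3 FPKM in Metrn cKO and to 35.7 and 90.0 FPKM in Metrn f/f. T and NK cell markers summed to 181 and 145 FPKM in Metrn cKO and to 151 and 260.1 FPKM in Metrn f/f. Most of that sum was Nkg7, with 170 and 144 FPKM in Metrn cKO and 149 and 248 FPKM in Metrn f/f. Of the defining markers of these lists, Cd3e and Cd3g of T cells were listed at 0 in Metrn cKO 2, and no other was at 0 in any library. The promyelocyte markers summed to 5563 and 4821 FPKM in Metrn cKO and to 5815 and 6741 FPKM in Metrn f/f. The 6 LSK sort and stem cell markers ran the other way, at 280.3 and 704 FPKM in Metrn cKO and 603 and 379.9 FPKM in Metrn f/f. The part of mature cells in the levels of the members was not tested.

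**Figure D3:**
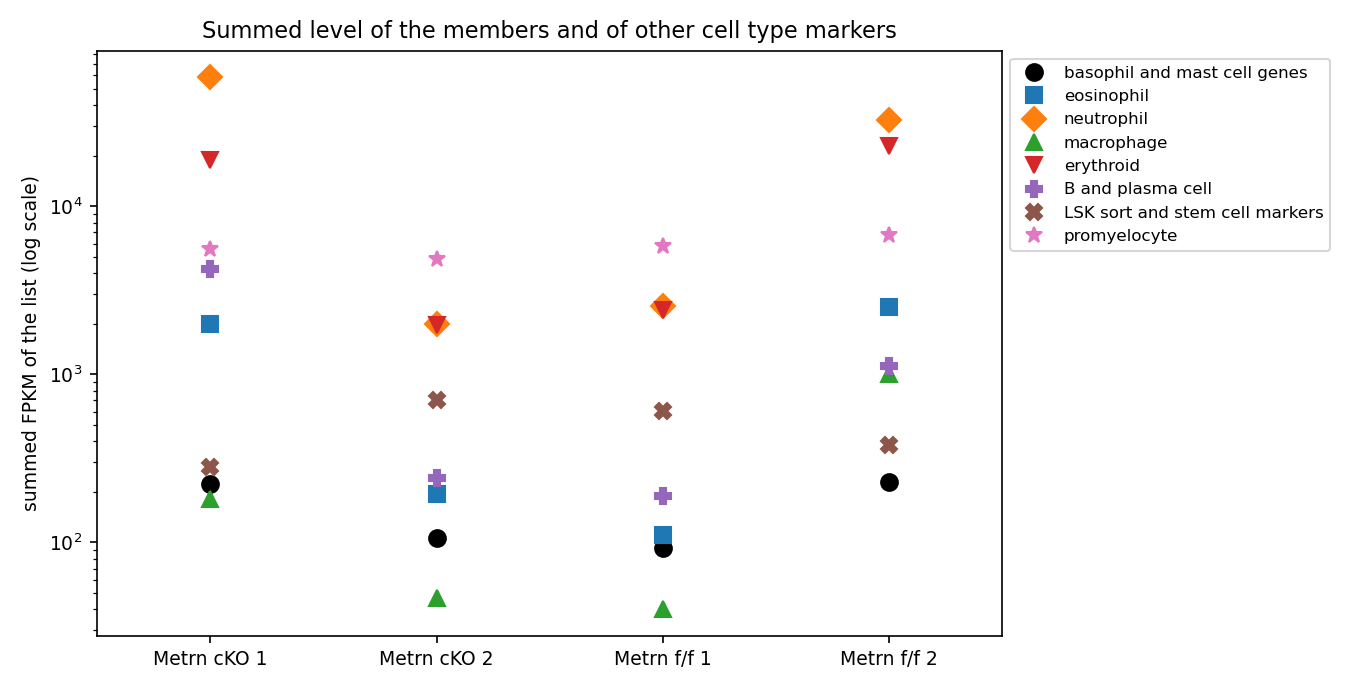
Summed FPKM of the 7 members and of 7 lists of other cell type markers (vertical axis, log scale) in each library (horizontal axis). The members' sum (black circles), mostly Mcpt8 and Prss34, was highest in Metrn cKO 1 and Metrn f/f 2. So were the neutrophil, eosinophil, macrophage, erythroid and B cell lists, while the LSK list was lowest there.

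Genes whose profile over the 4 libraries was most like the mean centred profile of the 6 tested members were Abracl, Mcee, Rnase6, Cfl1 and Mrpl18. Likeness was the root mean square difference of log2(FPKM + 1) values centred on each gene's mean, among 8706 tested genes with a mean of at least 4 FPKM, leaving out predicted, RIKEN, pseudogene, small RNA and immunoglobulin segment names. It was 0.0136 for Abracl, an ABRA C-terminal-like gene, and at most 0.0469, for Mrpl18, a mitochondrial ribosomal protein gene. Abracl had 105 and 59.5 FPKM in Metrn cKO and 56.1 and 113 FPKM in Metrn f/f. The members themselves lay 0.260 (Cpa3) to 0.445 (Ms4a2) from their mean profile, so 9.91% to 31.2% of the 8706 genes were nearer to it than a member was. With only 4 libraries, many unrelated genes share a profile.

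The wider programme of the lineage showed 0 genes called in any of 6 role lists. Among 14 genes of IgE receptor signalling, all tested, the median log2 fold change was 0.09, where that over all tested genes was 0.07. Vav1, a signalling protein of blood cells, was the 1 gene of 14 whose groups did not overlap, with Metrn cKO above, an arrangement of 6.31% of all tested genes (52.3 and 53.9 FPKM in Metrn cKO, 51.8 and 30.6 FPKM in Metrn f/f). Plcg2 and Grb2, a phospholipase and an adaptor that act below the receptor, had log2 fold changes of 0.61 (SE 0.52) for Plcg2 and -0.01 (SE 0.38) for Grb2. Histamine handling and lipid mediator genes (9 of 12 tested) had a median of -0.08, with 1 gene above, the histamine receptor gene Hrh2, and 1 below, the histamine-methylating enzyme gene Hnmt, against 6.31% of all tested genes above and 5.73% below. Alox5ap, which presents arachidonic acid to 5-lipoxygenase, had 285 and 143 FPKM in Metrn cKO and 142 and 398 FPKM in Metrn f/f. Alox5, the 5-lipoxygenase gene, had 38.0 and 4.68 FPKM in Metrn cKO and 6.25 and 13.1 FPKM in Metrn f/f. Ptgs1, the constitutive cyclooxygenase gene, had 22.0 and 13.9 FPKM in Metrn cKO and 14.2 and 11.6 FPKM in Metrn f/f.

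Receptor genes (11 of 18 tested) had a median of -0.06, with 3 above (Csf2rb2, Il18r1 and Itgb7) and 2 below, against 6.31% and 5.73% of all tested genes. The 2 below were Il3ra, the receptor chain for the basophil growth factor IL-3, and Cd69, an activation marker. Il3ra had 14.4 and 20.7 FPKM in Metrn cKO and 24.4 and 25.1 FPKM in Metrn f/f. Cd63, a granule membrane protein that reaches the surface on degranulation, had 259 and 129 FPKM in Metrn cKO and 122 and 342 FPKM in Metrn f/f. Crlf2, a chain of the receptor for the epithelial cytokine TSLP, had 48.5 and 82.0 FPKM in Metrn cKO and 61.5 and 98.9 FPKM in Metrn f/f. The mast cell receptor gene Il1rl1, for IL-33, stayed under 1 FPKM in every library.

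Transcription factor genes (13 of 13 tested) had a median of -0.02, with 0 above and 2 below, Gata1 and Cebpa, against 6.31% and 5.73% of all tested genes. Gata2, needed for both lineages, had 10.2 and 46.2 FPKM in Metrn cKO and 43.6 and 23.9 FPKM in Metrn f/f. Its high libraries were those with low Mcpt8 and Prss34. Gata1, shared with red cells and eosinophils, had 3.10 and 2.55 FPKM in Metrn cKO and 4.02 and 17.8 FPKM in Metrn f/f. Mitf, which mast cells need, had 0.732 and 1.13 FPKM in Metrn cKO and 1.01 and 1.15 FPKM in Metrn f/f. The most abundant factors of the list were Spi1, Irf8 and Lmo4. Spi1, the PU.1 factor of myeloid cells, had 176 and 107 FPKM in Metrn cKO and 94.4 and 205 FPKM in Metrn f/f.

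Cytokine and chemokine genes (6 of 10 tested) had the lowest median, -1.23, and in 4 of the 6 each Metrn cKO value lay under each Metrn f/f value: Il4, Osm, Ccl3 and Ccl4. Over all tested genes 5.73% had that arrangement. None passed the test, and Ccl3 had an unadjusted p of 0.0452 (adjusted p = 1.00 by limma). Il4, the type 2 cytokine that basophils release, had 0.598 and 0.978 FPKM in Metrn cKO and 1.20 and 4.77 FPKM in Metrn f/f. Ccl3, a macrophage inflammatory protein gene, had 22.6 and 49.4 FPKM in Metrn cKO and 59.8 and 255 FPKM in Metrn f/f. Ccl4, its neighbour in the family, had 19.3 and 35.6 FPKM in Metrn cKO and 42.0 and 212 FPKM in Metrn f/f. Metrn f/f 2 was the highest library for each of these, as it was for the macrophage markers. Without Metrn f/f 2 the list median was -0.34, and the same 4 genes lay below, an arrangement that 27.4% of the tested genes then had. Without Metrn cKO 1 the list median was -1.35, and 5 of the 6 genes lay below, where 17.2% of the tested genes did. Il13 was listed at 0 in all 4 libraries.

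**Figure D4:**
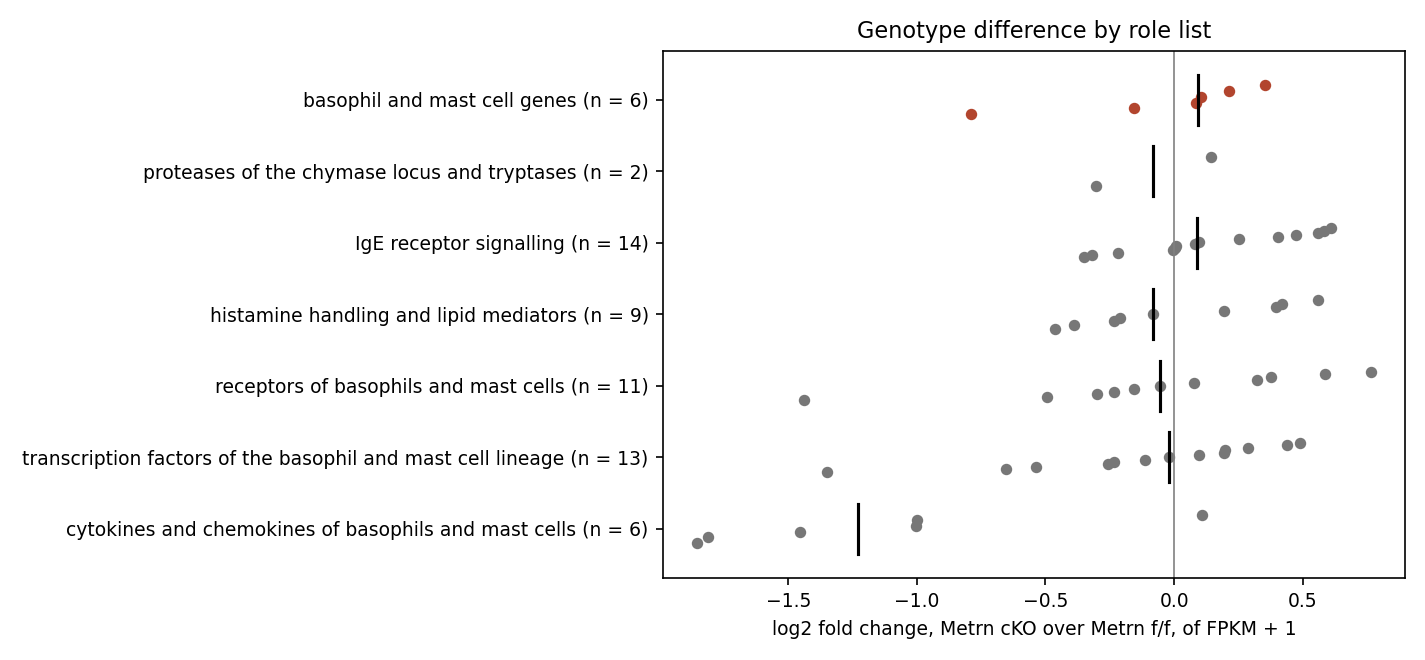
Log2 fold change of FPKM + 1, Metrn cKO over Metrn f/f (horizontal axis), of each tested gene (points) in the members (red) and in 6 lists of related genes (grey), with list medians as black bars. Medians lay between -0.08 and 0.09 except that of the cytokine list, at -1.23, and no point is a gene that passed the test.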

How the data were processed

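RNA from sorted LSK cells of 4 mice was extracted with TRIZOL, treated with DNase and made into Illumina libraries, per the labels' protocols. The submitters' processing notes name cutadapt 1.16.5, HISAT2 2.1, featureCounts 1.6.4 and the build mm10, without the role of each. For each library the authors deposited a table of 47561 gene symbols and values, whose unit was not named and was taken here as FPKM. Decimals set the values apart from raw counts and unequal sums from values scaled to a common total, but neither singles out FPKM. The order of levels between genes depends on this reading. Depth and strand setting are unknown, so no counting interval was computed.

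The 13148 genes that reached 1 FPKM in 2 or more libraries were fitted on log2(FPKM + 1) by genotype with an intensity trend in limma 3.58.1 (R 4.3.3). Tests were 2-sided, and p-values were adjusted by Benjamini-Hochberg across these genes, called at 0.05. Fold changes on this scale understate those of low genes. Gene positions are from GENCODE release M 21 (GRCm38, the assembly of mm10), and promoter sequences from RefSeq (GRCm38.p6; 7 of 7 members matched).

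Members and lists were chosen with earlier results of these data known. Text names the 7 members, the 3 genes of highest mean in each role list and any called gene, the first 2 markers of each cell type list, and the 5 nearest profiles. Other genes named (those whose groups did not overlap, those listed at 0 and single genes such as Slc18a2, Cd200r1, Gata2, Gata1, Mitf and Il1rl1) were chosen after their values were seen. Protein sequences were not used here. Alternatives covered pseudocount, filters, rescaling, variance trend, replicate block and leaving out each library.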

Additional observations from a re-analysis of the deposited data

How the results depend on the processing

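Across changes of pseudocount, filter, scaling, variance trend, replicate block and left-out library, no member passed the test. With the untested difference between Metrn cKO 2 and Metrn f/f 1 included, 9 of 70 recomputed member values changed sign. All these changes came from leaving out a library or from that single difference. With each library left out in turn, the log2 fold change ran from -0.62 to 1.05 for Mcpt8, -0.77 to 0.94 for Prss34, -0.62 to 0.31 for Cpa3 and -0.50 to 0.72 for Hdc, changing sign. It ran from -1.45 to -0.13 for Fcer1a and 0.20 to 0.51 for Ms4a2, with no change of sign. Between Metrn cKO 2 and Metrn f/f 1 alone, Cpa3 had 0.27 and Hdc -0.37, opposite to the fit of all libraries. The pseudocount and both rescalings left every member's sign as it was. The filters, the variance trend and the replicate block cannot change a fold change in this design. Their unchanged signs are therefore no support, although their values are among the 70. With a mean of at least 4 FPKM required, Fcer1a and Ms4a2 were not tested. Over these settings and the main fit, the log2 fold change was 0.21 to 0.33 for Mcpt8 and 0.08 to 0.23 for Prss34. It was -0.16 to -0.07 for Cpa3 and -1.35 to -0.79 for Fcer1a. For Ms4a2 it was 0.24 to 0.48 and for Hdc 0.09 to 0.19. Quantile normalization gave the upper ends for Mcpt8 and Prss34 and the lower ends for Ms4a2 and Hdc. With no filter Cd200r3 had -0.14 (SE 0.37). Over all genes, 0 to 32 were called higher and 0 to 5 lower when 1 library was left out, against 0 and 0 with all. With no filter 6 were called lower. With the replicate number as a block, 3 genes were called higher and 1 lower, and no member was called. Same-numbered libraries of the genotypes deviated in opposite directions (r = -0.708 over genes), which is no sign that the numbers pair the mice. With the pairing crossed, chosen after the data were seen, 37 genes were called higher and 65 lower, with 0 of the 6 tested members among them (1 had an unadjusted p under 0.05). The cause of these changes was not tested. Only 2 mice per genotype and unknown depth limit every value, above all the genes near 1 FPKM: Fcer1a, Ms4a2 and Cd200r3.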
